A study of Mus musculus with 18 samples.

Results

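Microglia of male mice labelled Chd8 knockout (KO) were compared with microglia of male mice labelled wild type (WT). The members are the 10 libraries that the column names mark as male, 5 KO (replicates 36, 6, 9, 17 and 40) and 5 WT (replicates 13, 37, 10, 11 and 14), of 18 libraries in all. Values per library are given below in that order. The other 8 libraries are female, 4 KO and 4 WT, and served to estimate the spread and to compare the KO effect between the sexes. All libraries hold brain microglia, and their polyadenylated RNA was counted at its 3' end with a bulk form of MARS-seq in which a unique molecular identifier (UMI) marks every molecule captured. The names of all 18 libraries also carry the letters HX, whose meaning is not given in the labels. Strain, age, the allele of Chd8, the cells in which it was altered and the litters are not given in the labels used here. The p-values therefore measure the spread between these libraries, which may be technical.

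Microglia are the macrophages that live in the brain. They survey the tissue through receptors for chemokines, nucleotides and growth factors, take up debris, and depend on signalling through the colony-stimulating factor receptors. CHD8 is an ATP-dependent chromatin remodeler, known as an autism risk gene, that binds near the start sites of many genes. It is described as a partner of beta-catenin and of p53 that brings linker histone H1 to their target genes.

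The male libraries held 2022957 to 9149144 UMIs each. Of the 10, 7 had under 2.5 reads per UMI (KO 36, 6, 17 and 40, WT 13, 37 and 10), and KO 9, WT 11 and WT 14 had 2.94 to 3.12. Defining microglial markers were abundant in every library, with a sum over 10 markers of 27407 to 31240 CPM (UMIs of a gene per 1000000 UMIs of the library) in KO and 31046 to 34900 CPM in WT. Markers of several other cell types were higher in KO. The 10 neuronal markers summed to 72.5, 269, 339, 210 and 86.9 CPM in KO and to 15.1 to 39.5 CPM in WT. Astrocyte markers summed to 279 to 586 CPM in KO and 136 to 182 CPM in WT. The sums for the oligodendrocyte lineage were 244 to 833 CPM in KO and 101 to 155 CPM in WT. Border-associated macrophages live along vessels and in the meninges, and had markers that summed to 188 to 299 CPM in KO and 41.6 to 74.4 CPM in WT. In each of these 4 sums the KO and WT libraries did not overlap, and KO 6, 9 and 17 held the highest neural sums. Erythroid markers summed to 104 to 421 CPM in KO and 3.47 to 177 CPM in WT, and the 9 lymphocyte markers to 88.5 to 102 CPM in KO and 58.3 to 78.5 CPM in WT. Only 1 of the 9 lymphocyte markers had enough counts to be tested below. The monocyte sums overlapped (28.7 to 64.3 CPM in KO, 32.8 to 64.3 CPM in WT), as did the neutrophil sums (1032 to 1314 CPM in KO, 919 to 1826 CPM in WT). Endothelial and mural sums overlapped too (28.8 to 36.5 CPM in KO, 26.3 to 37.0 CPM in WT). So did those of choroid plexus and ependyma (199 to 835 CPM in KO, 417 to 986 CPM in WT). Of the markers, Slco1a4 (endothelial) and Ncr1 (lymphocyte) were at 0 in all male libraries. The part of these transcripts in the differences below was not tested, and most counts of called genes are also given without KO 6, 9 and 17. That leaves only KO 36 and 40 against the 5 WT libraries. Of the female libraries, KO 33 was the shallowest (435838 UMIs) and went against its label in part. It held the Y-linked genes Ddx3y and Uty at 9.18 CPM each, where the other 7 female libraries held 0 to 1.04 and 0 to 0.321 CPM, and Xist at 22.9 CPM, against 40.4 to 102.6 CPM. It enters the spread behind each male test, and without it 945 genes were called in males in place of 683.

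**Figure D1:**
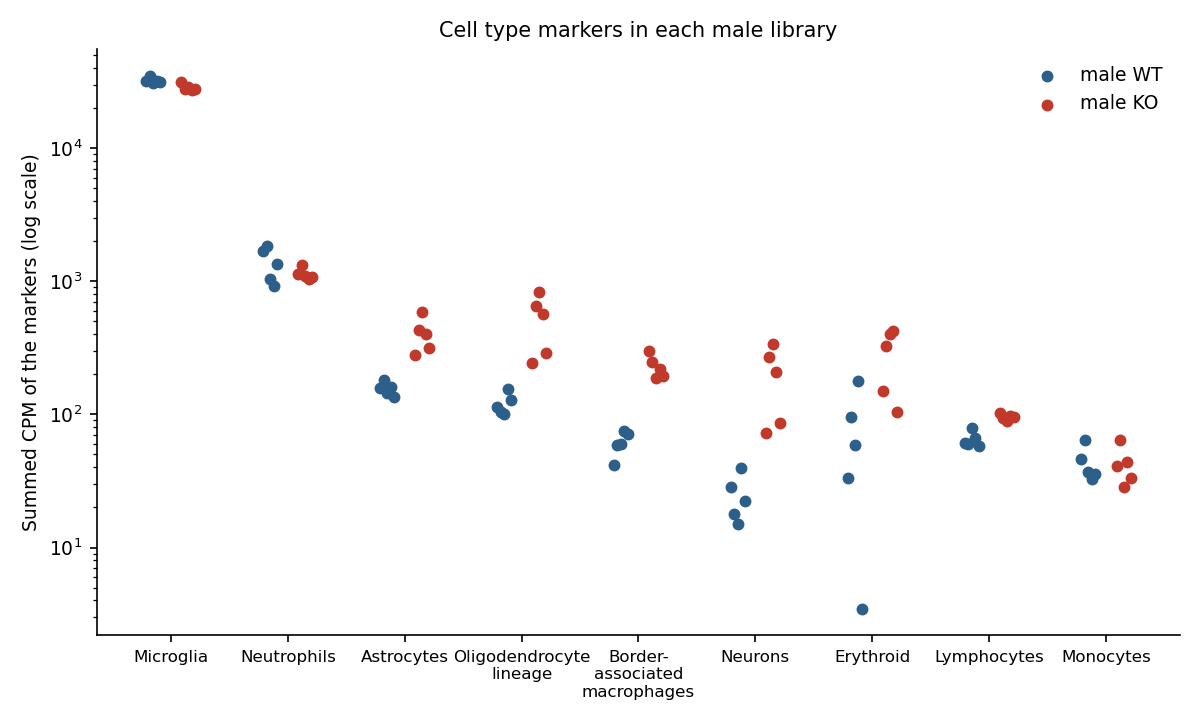
Summed CPM of cell type markers (vertical axis, log scale) in each male library, with WT in blue and KO in red and 1 point per library. The neuronal, astrocyte, oligodendrocyte and border-associated macrophage sums of the 5 KO libraries lie above those of the 5 WT libraries, and the microglial sums are between 27407 and 34900 CPM in all 10.

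Over all tested genes, the KO and WT libraries separated along the first principal component, which held 35.9% of the variance of log2(CPM + 1). Its scores were 10.1 to 31.2 in KO and -23.7 to -16.8 in WT. KO 6 and 17 lay farthest from WT (31.2 and 29.5), and KO 36 and 40 lay nearest (10.1 and 13.0). On the second component, with 15.02% of the variance, KO 9 stood apart at 36.5, while the other 9 libraries lay between -15.2 and 7.36.

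**Figure D2:**
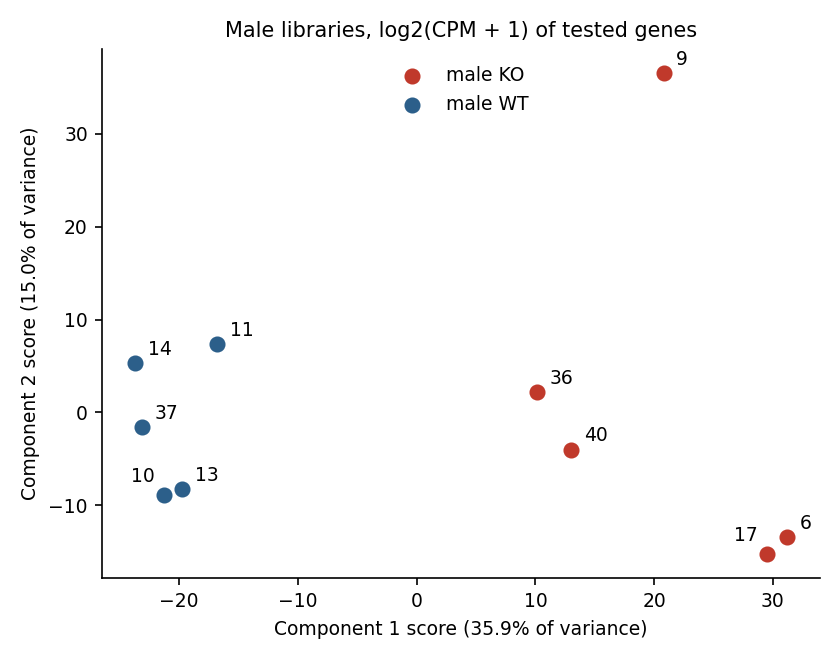
Scores of the 10 male libraries on the first (horizontal) and second (vertical) principal component of log2(CPM + 1), labelled by replicate number, KO in red and WT in blue. KO and WT do not overlap on the first component, and KO 9 lies apart on the second.

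The labelled gene comes before the others. Chd8 (identifier ENSMUSG00000053754) lies on the minus strand of GRCm38 at chromosome 14, 52198151 to 52257780, and was at 102, 97.4, 116, 96.4 and 109 CPM in KO and 167, 156, 159, 135 and 143 CPM in WT. Every KO library lay below every WT library, and the lowest KO library, KO 17, still held 96.4 CPM. Its log2 fold change was -0.54 ± 0.102 (± SE, here and below), a 1.46-fold fall with a Benjamini-Hochberg adjusted p of 0.00171 in edgeR's quasi-likelihood test. It was -0.66 in the 7 libraries of low reads per UMI (edgeR adjusted p = 0.000764), and in the remaining 3 libraries the log2 ratio was -0.26. Where the allele is altered is not given, and a 3' tag outside that stretch is counted all the same, so this level checks the label only in part. Chd8 did not pass on the uncorrected read counts (edgeR adjusted p = 0.0753). Chd8 (-0.51) did not pass without KO 6, 9 and 17, with the log2 fold change in brackets (edgeR adjusted p = 0.0879). Of the CHD family 9 members were tested, and Chd8 was the 1 that was called. At an unadjusted p under 0.05 in edgeR 0 of the 9 were higher and 2 lower. In the 7 libraries of low reads per UMI 2 were called lower and 0 higher. Chd1, named after its values were seen, had a larger fall (-0.71) and was not called.

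**Figure D3:**
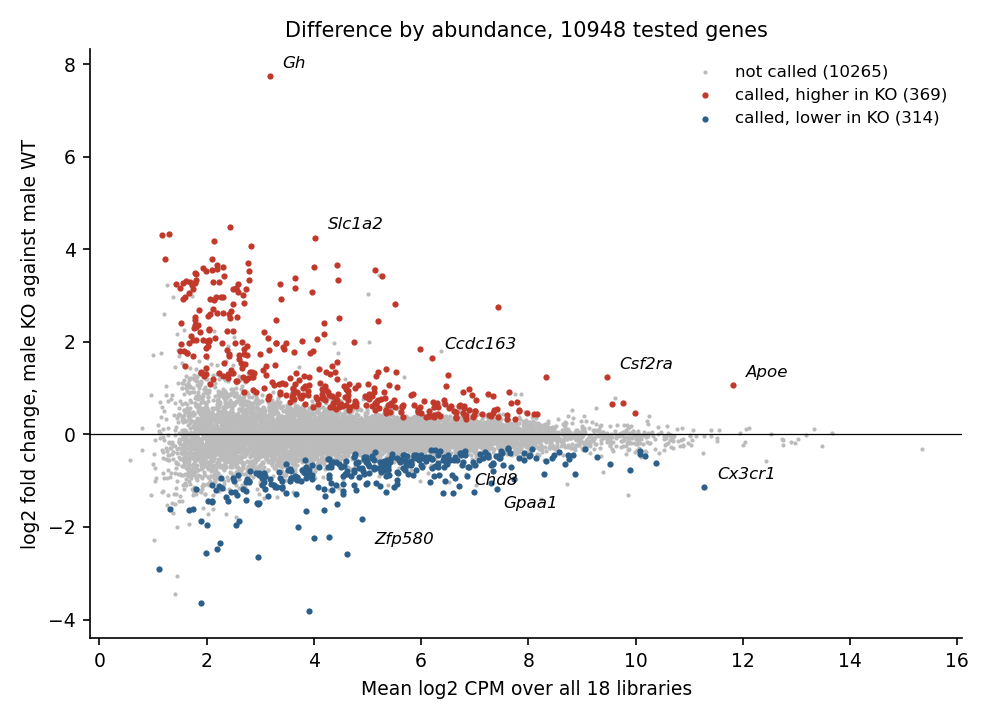
Log2 fold change of male KO against male WT (vertical) by mean log2 CPM over all 18 libraries (horizontal), 1 point per tested gene. Red points are the 369 genes called higher and blue points the 314 called lower at an edgeR adjusted p under 0.05, and the largest rises lie at low abundance.

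Which genes differed between KO and WT males was asked next. In edgeR's quasi-likelihood test 683 of 10948 genes were called (Benjamini-Hochberg adjusted p under 0.05), which is 6.24%. They were 369 genes higher in KO (3.37%) and 314 lower (2.87%), and 293 differed by at least 2-fold, 207 of them higher and 86 lower. Scaled by library totals alone the split was 430 higher and 244 lower, 63.8% higher against 54.0%. The median log2 fold change was 1.16 among the genes called higher, -0.75 among those called lower and -0.0084 over all tested genes. The libraries of the 2 groups did not overlap for 314 of the 369 and for 261 of the 314. Over all tested genes KO lay wholly above WT for 577 (5.27%) and wholly below for 501 (4.58%).

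Genes that rose and genes that fell differed in abundance. Below a mean log2 CPM of 3, 131 of 2214 genes were higher and 44 lower. Between 3 and 6 the counts were 170 and 166 of 5688. At 6 and above, 68 of 3046 were higher and 104 lower, an order that turned to 98 higher and 79 lower when libraries were scaled by their totals alone. Protein-coding genes made up 351 of the genes called higher and 288 of those called lower, and 9376 were not called. Of the pseudogenes 8 were called, each lower, and 344 were not. That share is no larger than the 2.87% called lower over all tested genes. The share of tested genes called higher ran from 1.04% on chromosome X to 4.32% on chromosome 7 among chromosomes 1 to 19 and X, and the share called lower from 0.559% on chromosome 12 to 5.10% on chromosome 6. The median span of the gene in the annotation was 15.1 kb for genes called higher and 14.5 kb for genes called lower, against 20.7 kb over all tested genes.

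The same contrast was run within the 7 male libraries under 2.5 reads per UMI. There 940 of 10308 genes were called (9.12%), 439 higher (4.26%) and 501 lower (4.86%). Of the 369 genes called higher over all libraries 345 were tested in the 7, all 345 had a positive log2 fold change there, and 282 were called. Of the 314 called lower 306 were tested, all 306 had a negative log2 fold change, and 258 were called. The median log2 fold changes in the 7 libraries were 1.02 and -0.74. The remaining 3 libraries (KO 9 against WT 11 and 14), for which only a log2 ratio of mean CPM + 1 was formed, gave the same sign for 368 of 369 and 312 of 314 genes, and for 69.98% of all tested genes. All these libraries also entered the main comparison, so neither set is independent of it.

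Genes that rose and genes that fell differed in how far they rested on KO 6, 9 and 17. Without these 3 libraries 196 of 11639 genes were called (1.68%), 112 higher (0.962%) and 84 lower (0.722%). Only KO 36 and 40 then remain in the KO group, so a call can be lost while the log2 fold change is kept. Chd8, for example, was at -0.54 with and -0.51 without the 3 libraries and lost its call. All 356 genes called higher that could still be tested kept a positive log2 fold change, and all 314 called lower a negative one, with 110 and 74 of them still called. The remaining libraries also entered the main comparison, so the kept sign is no independent check. For genes whose KO and WT libraries do not overlap it was largely fixed in advance. For 70 of the 356 the log2 fold change shrank by over 1.5 times, from a median of 2.61 to 1.48. For the other 286 the medians were 0.94 with and 0.95 without the 3 libraries. Of the 314 genes called lower the log2 fold change shrank by that much for 6, and the median over the other 308 was -0.75 with and -0.73 without them.

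**Figure D4:**
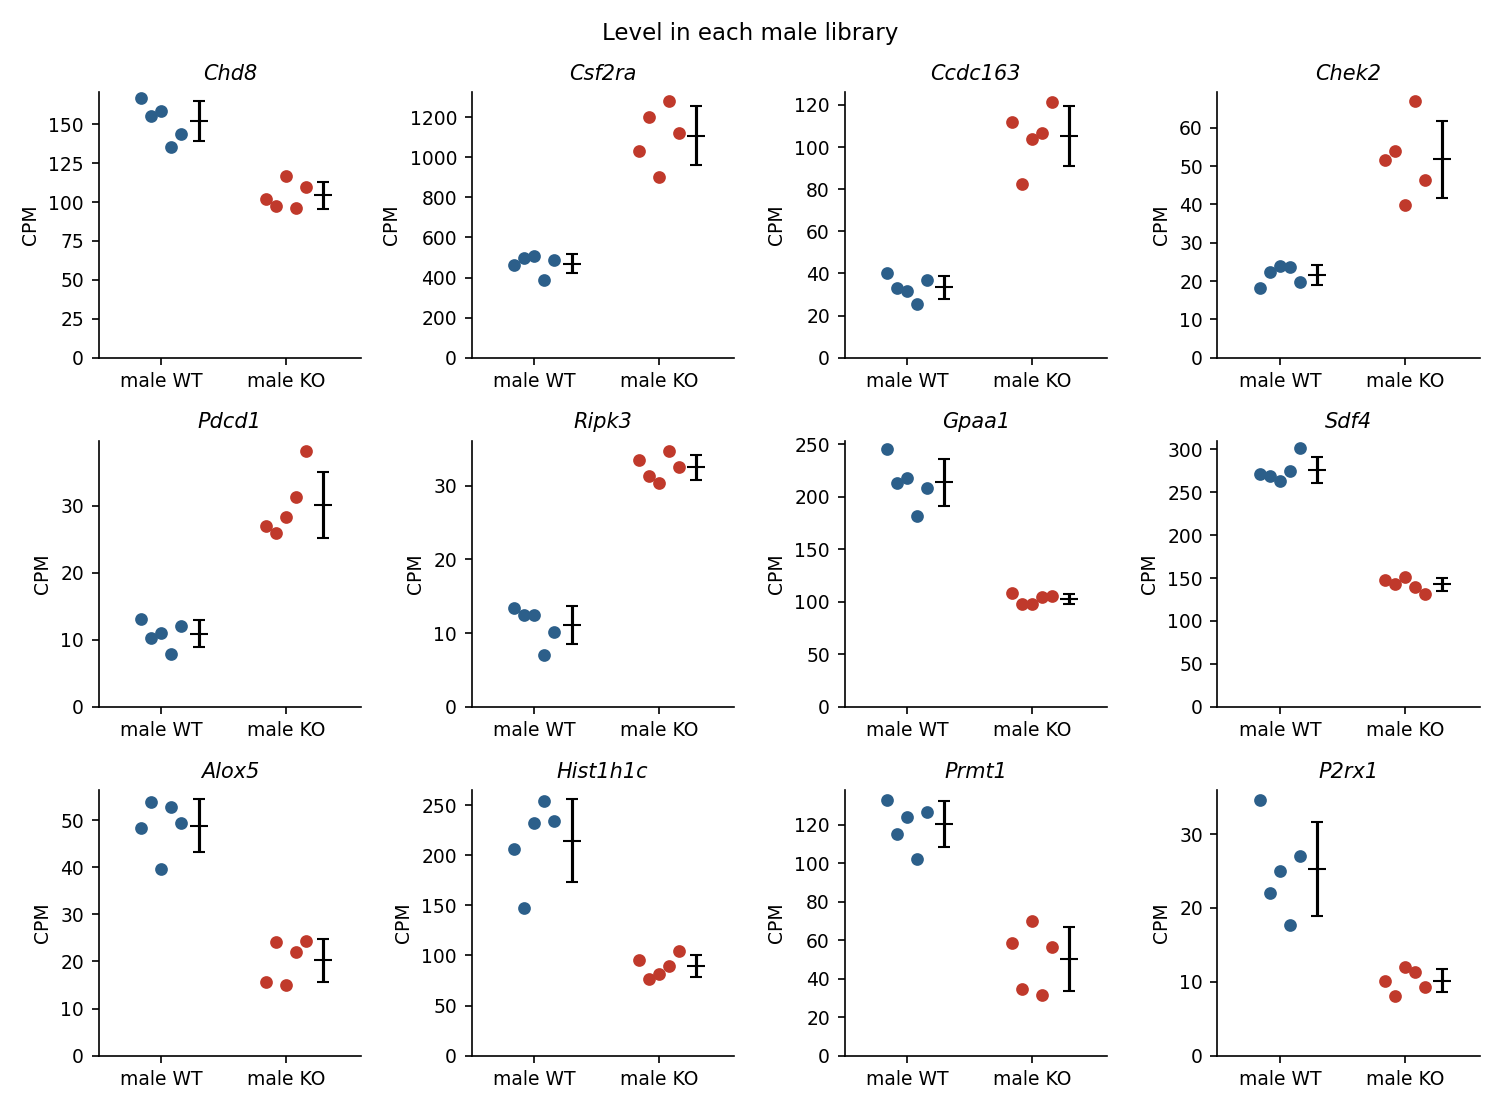
CPM (vertical axis, from 0) of 12 genes in each of the 5 WT (blue) and 5 KO (red) male libraries, with the group mean and SD in black. For each gene shown, all KO libraries lie on 1 side of all WT libraries.

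Several genes rose in all 5 KO libraries to a similar level. Most genes named from here to the gene lists were chosen among those whose KO and WT libraries do not overlap. For them the lack of overlap was fixed by that choice. Ccdc163, a coiled-coil gene (chromosome 4, 116708509 to 116751206, plus strand), was at 112, 82.4, 104, 107 and 121 CPM in KO and 40.02, 33.3, 31.5, 25.5 and 36.99 CPM in WT. The lowest KO library was above the highest WT library by a wide margin. Its log2 fold change was 1.66 ± 0.14, 3.15-fold (edgeR adjusted p = 4.02e-07), the lowest p of all genes called higher. Its interval in the annotation overlaps Tesk2 on the same strand, so 3' tags of the 2 genes may not be told apart. Csf2ra encodes the alpha chain of the receptor for GM-CSF, a growth factor that acts on microglia and other myeloid cells. It was at 1032, 1201, 902, 1281 and 1123 CPM in KO and 464, 497, 508, 387 and 487 CPM in WT, a 2.37-fold rise (log2 fold change 1.24 ± 0.13, edgeR adjusted p = 5.81e-06). KO 9 was the lowest KO library and still lay above every WT library. Aaas, which encodes the nuclear pore protein aladin, was at 61.2, 74.4, 64.7, 74.9 and 50.7 CPM in KO and 25.2, 20.5, 30.5, 23.2 and 28.4 CPM in WT (1.35 ± 0.15, edgeR adjusted p = 9.23e-06). Chek2, the checkpoint kinase that acts downstream of ATM after DNA breaks, was at 51.7, 53.96, 39.8, 66.9 and 46.5 CPM in KO and 18.2, 22.3, 24.03, 23.7 and 19.8 CPM in WT (1.27 ± 0.15, edgeR adjusted p = 2.81e-05). KO 17 was highest and KO 9 lowest for Chek2, with no overlap between the groups.

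Genes of RNA metabolism, cell death and glucose metabolism were also among the called genes of lowest p. Dhx34, a helicase of nonsense-mediated RNA decay, was at 106, 124, 117, 118 and 122 CPM in KO and 69.95, 57.04, 55.6, 47.2 and 52.6 CPM in WT (1.06 ± 0.13, edgeR adjusted p = 3.04e-05). Lsm4, part of the ring that binds U6 small nuclear RNA, was at 201, 205, 233, 225 and 216 CPM in KO and 133, 107, 135, 116 and 119 CPM in WT (0.83 ± 0.11, edgeR adjusted p = 6.51e-05). Both were nearly level across the 5 KO libraries. Ripk3, the kinase of necroptosis, was at 33.5, 31.4, 30.4, 34.7 and 32.5 CPM in KO and 13.5, 12.4, 12.5, 6.95 and 10.2 CPM in WT, a 2.96-fold rise (edgeR adjusted p = 7.51e-05). The 5 KO libraries were nearly level here too, and WT 11 was the lowest library. G6pc3, a glucose-6-phosphatase expressed in most tissues, was at 265, 281, 271, 307 and 241 CPM in KO and 149.7, 126, 142, 149.7 and 149.9 CPM in WT (0.93 ± 0.12, edgeR adjusted p = 6.51e-05). Col11a2, a fibrillar collagen chain, rose from 1.74 to 5.101 CPM in WT to 11.1 to 17.5 CPM in KO (1.97 ± 0.24, edgeR adjusted p = 3.04e-05). In contrast to these, Plekhb1, which encodes a pleckstrin homology domain protein, was at 12.02, 41.2, 50.3, 31.6 and 16.9 CPM in KO and 1.68, 2.13, 1.001, 4.92 and 3.51 CPM in WT (3.37 ± 0.41), with KO 6, 9 and 17 above the other KO libraries and a log2 fold change of 2.38 without them. Ccdc163, Csf2ra, Aaas, Chek2, Dhx34, Lsm4, Ripk3, G6pc3, Col11a2 and Plekhb1 were called in each of 22 alternative fits.

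Genes that fell are given next. Gpaa1, a subunit of the enzyme that attaches GPI anchors to proteins (chromosome 15, 76331231 to 76334907), was at 108, 98.1, 98.1, 104 and 105 CPM in KO and 246, 214, 218, 182 and 209 CPM in WT. It was 2.07-fold lower, with a log2 fold change of -1.05 ± 0.11 (edgeR adjusted p = 4.47e-06), and the 5 KO libraries lay within 98.1 to 108 CPM. Sdf4, which encodes the calcium-binding Golgi protein Cab45 (chromosome 4, 155992872 to 156013610), was at 148, 143, 151, 139 and 131 CPM in KO and 271, 269, 263, 275 and 301 CPM in WT (-0.95 ± 0.11, edgeR adjusted p = 1.44e-05). Jam3, a junctional adhesion molecule, was at 8.23, 10.2, 11.5, 10.1 and 8.23 CPM in KO and 31.9, 30.1, 30.03, 23.7 and 30.6 CPM in WT (-1.63 ± 0.19, edgeR adjusted p = 2.55e-05). WT 11 was the lowest WT library and remained above all KO libraries. Prmt1, the main enzyme for asymmetric arginine methylation, was at 58.4, 34.6, 69.7, 31.3 and 56.5 CPM in KO and 133, 115, 124, 102 and 126 CPM in WT (-1.26 ± 0.16, edgeR adjusted p = 5.68e-05). KO 6 and 17 were the lowest for Prmt1, and the log2 fold change without KO 6, 9 and 17 was -1.05.

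Further genes fell, with every KO library below every WT library. Nop53, a factor of ribosome assembly, was at 47.8 to 70.7 CPM in KO and 119 to 139 CPM in WT (-1.11 ± 0.15, edgeR adjusted p = 8.04e-05). Man2c1, a cytosolic mannosidase, was at 45.9 to 58.7 CPM in KO and 116 to 145 CPM in WT (-1.28 ± 0.18, edgeR adjusted p = 0.000119). Pbxip1, which encodes a protein that binds PBX factors, was at 74.6 to 98.2 CPM in KO and 174 to 208 CPM in WT (-1.19 ± 0.203, edgeR adjusted p = 0.000751). For all 3 the highest KO library was below the lowest WT library. At lower levels, Erich1 was at 5.69 to 8.596 CPM in KO and 19.5 to 30.03 CPM in WT (-1.67 ± 0.22) and Smim7, a small membrane protein, at 15.7 to 26.8 CPM in KO and 39.9 to 45.8 CPM in WT (-1.05 ± 0.14). Maged1, a MAGE family protein, was at 26.4 to 33.3 CPM in KO and 48.9 to 64.1 CPM in WT (-0.87 ± 0.12). The membrane protein Tmem150a (-0.89 ± 0.12), the kinase-like gene Adck5 (-0.88 ± 0.12), the oxidoreductase Pyroxd2 (-1.11 ± 0.18) and the adenylate kinase Ak1 (-1.08 ± 0.19) fell as well, with edgeR adjusted p of 6.51e-05, 0.000113, 0.000532 and 0.00116. Phpt1, a phosphohistidine phosphatase, was at 17.3, 22.2, 26.9, 32.2 and 29.05 CPM in KO and 43.7, 58.8, 51.6, 58.2 and 66.6 CPM in WT (-1.13 ± 0.199, edgeR adjusted p = 0.00101). Some of these genes overlap others in the annotation, where tags may be shared: Phpt1 with Mamdc4 on the same strand, and Man2c1, Tmem150a, Adck5 and Pyroxd2 with antisense genes, for which the strand setting of the counting is not given in the sources used here. Every gene of this paragraph was called in each of the 22 alternative fits.

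Gene lists were then read against the shares over all tested genes, 3.37% higher and 2.87% lower. Of 45 microglial identity genes 0 were higher and 3 lower, with a median log2 fold change of -0.12. At an unadjusted p under 0.05 in edgeR the counts were 0 and 9, with DESeq2 0 and 6, and without KO 6, 9 and 17 0 and 2. The 3 were Cx3cr1, the receptor for the neuronal chemokine fractalkine, Ltc4s, the synthase of leukotriene C4, and Olfml3, a secreted protein. Cx3cr1 was at 1631, 1060.3, 1629, 911 and 1274 CPM in KO and 2997, 3496, 2470.2, 2519 and 2922 CPM in WT, so that the highest KO library lay well below the lowest WT library. In the 7 libraries of low reads per UMI 11 of the 45 were lower and 1 was higher. The sum of the 10 microglial markers, which contains Cx3cr1 itself, was below every WT library in 4 of 5 KO libraries, and KO 36 lay above WT 10. Fewer microglia and less RNA per cell cannot be told apart in bulk samples. Cx3cr1 spans several other genes of the annotation on both strands. Olfml3 did not pass on the uncorrected read counts (edgeR adjusted p = 0.3896). Olfml3 (-0.44) did not pass without KO 6, 9 and 17, with the log2 fold change in brackets (edgeR adjusted p = 0.2004). Olfml3 lost its call without any 1 of KO 17, KO 36, KO 40, KO 6, WT 13 or WT 37 (log2 fold change -0.34 to -0.42). With no filter on low counts, Olfml3 did not pass (edgeR adjusted p = 0.0617).

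**Figure D5:**
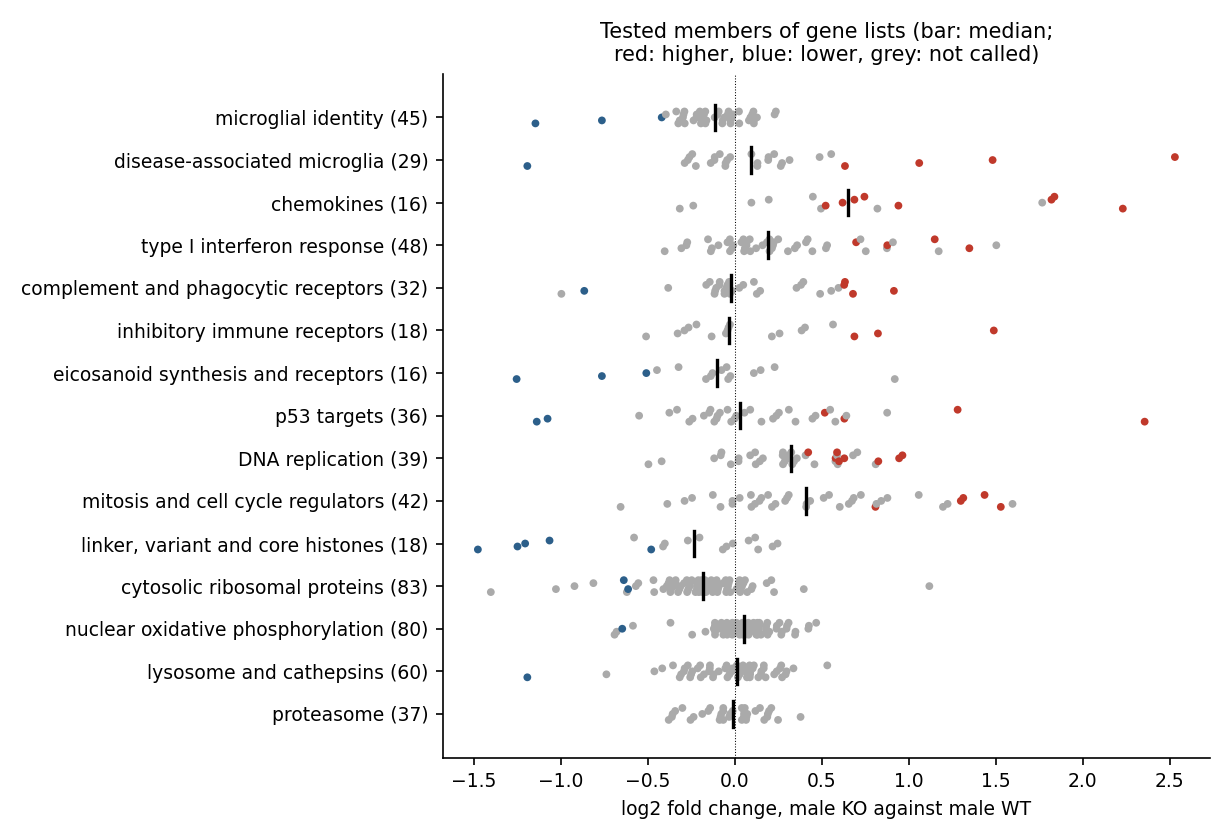
Log2 fold change of male KO against male WT (horizontal) for the tested members of 15 gene lists, with the number tested in brackets, the median as a black bar, and called members in red (higher) or blue (lower). The medians of the chemokines, DNA replication and mitosis lie to the right of 0, and the histone genes that were called lie to the left.

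Surface receptors were read against the same shares over all tested genes, 3.37% higher and 2.87% lower. Of 24 cytokine and growth factor receptors Csf2ra was the 1 called. At an unadjusted p under 0.05 in edgeR 2 were higher and 4 lower, and DESeq2 called 1 higher. In the 7 libraries of low reads per UMI 5 of the 24 were lower and 1 higher, and without KO 6, 9 and 17 the count was 1 higher and 0 lower. Among 9 purinergic and adenosine receptors 1 fell and 1 rose (1 and 0 without KO 6, 9 and 17). P2rx1, a channel opened by ATP, was at 10.1, 8.02, 11.9, 11.4 and 9.34 CPM in KO and 34.6, 21.96, 25.03, 17.7 and 27.1 CPM in WT (-1.32 ± 0.22, edgeR adjusted p = 0.000472), with no overlap. Adora1, an adenosine receptor that neurons and astrocytes also express, was at 4.43, 9.84, 17.4, 10.4 and 8.33 CPM in KO and 2.69, 1.77, 4.505, 2.03 and 1.59 CPM in WT (1.99 ± 0.42, edgeR adjusted p = 0.00440), and KO 36 overlapped WT. Of 18 inhibitory immune receptors 3 rose and 0 fell, with a median of -0.033 (edgeR unadjusted p under 0.05 for 4 higher and 2 lower, DESeq2 3 and 1, without KO 6, 9 and 17 2 and 0). Pdcd1, the inhibitory receptor PD-1 (chromosome 1, 94038305 to 94052553), was at 26.998, 25.9, 28.4, 31.3 and 38.2 CPM in KO and 13.1, 10.3, 11.01, 7.82 and 12.1 CPM in WT, a 2.805-fold rise (edgeR adjusted p = 7.79e-05). All KO libraries lay above all WT libraries, and KO 40 was the highest. Cd72 was at 24.1 to 42.4 CPM in KO and 14.99 to 19.5 CPM in WT (0.82 ± 0.16, edgeR adjusted p = 0.00252), and Cd22, a sialic acid receptor, at 27.3 to 37.3 and 17.7 to 26.2 CPM (0.69 ± 0.197, edgeR adjusted p = 0.0387). Cd72 overlaps the antisense gene Tesk1. The lymphocyte marker sum was also higher in KO, and its part in the values of these receptors was not tested. Only 1 of its 9 markers had enough counts to be tested. Over all libraries edgeR did not call that marker (log2 fold change 0.52), though its unadjusted p was under 0.05 and KO lay wholly above WT. DESeq2 called it higher, as did edgeR in the 7 libraries of low reads per UMI, but not without KO 6, 9 and 17. Adora1 and Cd22 did not pass on the uncorrected read counts (edgeR adjusted p 0.0857 to 0.247). Adora1 (1.43) and Cd22 (0.66) did not pass without KO 6, 9 and 17, with the log2 fold change in brackets (edgeR adjusted p 0.173 to 0.261). Cd22 lost its call without any 1 of KO 36, KO 40, KO 6, KO 9, WT 10, WT 11, WT 14 or WT 37 (log2 fold change 0.64 to 0.72).

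Phagocytic and complement genes moved in both directions, with 4 of 32 higher, 1 lower and a median of -0.023, but 0 higher and 0 lower without KO 6, 9 and 17. Fcgr4, an activating receptor for IgG, was at 45.8, 41.2, 34.9, 48.8 and 31.99 CPM in KO and 18.2, 24.1, 20.5, 22.01 and 22.3 CPM in WT (0.91 ± 0.17, edgeR adjusted p = 0.00164). Mfge8, a bridge between phosphatidylserine and phagocytes, was at 50.2, 55.4, 53.3, 55.9 and 47.3 CPM in KO and 34.6, 31.9, 28.5, 33.01 and 34.4 CPM in WT (0.68 ± 0.13, edgeR adjusted p = 0.00241). The TAM receptor Axl rose (0.63 ± 0.16, edgeR adjusted p = 0.0162), while its ligand Gas6 fell, from 355 to 439.6 CPM in WT to 189 to 230.1 CPM in KO (-0.87 ± 0.17, edgeR adjusted p = 0.00248). KO and WT libraries did not overlap for any of these 4 genes. In females, however, Axl was called lower in KO (-0.75 ± 0.18, edgeR adjusted p = 0.0286). Of 29 disease-associated microglia genes 4 were higher and 1 lower, with a median of 0.095, and 2 and 1 without KO 6, 9 and 17, with a median of 0.044. Igf1, a growth factor, was at 8.86, 7.66, 8.46, 7.37 and 6.50 CPM in KO and 0.673, 0.354, 1.001, 3.19 and 0.957 CPM in WT (2.53 ± 0.36, edgeR adjusted p = 0.000136), level across KO and highest among WT in WT 11. The cathepsin inhibitor Cst7 was at 10.3, 13.9, 5.48, 14.4 and 8.53 CPM in KO and 23.9, 21.6, 26.03, 28.4 and 20.7 CPM in WT (-1.19 ± 0.21, edgeR adjusted p = 0.000913). Of 60 lysosomal genes Cst7 was the 1 called, and without KO 6, 9 and 17 1 was lower and 0 higher. Mfge8 and Axl did not pass on the uncorrected read counts (edgeR adjusted p 0.116 to 0.548). Fcgr4 (0.85), Mfge8 (0.59), Axl (0.43) and Gas6 (-0.77) did not pass without KO 6, 9 and 17, with the log2 fold change in brackets (edgeR adjusted p 0.0536 to 0.347). Axl lost its call without KO 6 (log2 fold change 0.52).

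Of 16 genes of eicosanoid synthesis and signalling 3 fell and 0 rose, with a median of -0.10 (edgeR unadjusted p under 0.05 for 1 higher and 4 lower, DESeq2 1 and 3, without KO 6, 9 and 17 0 and 2). Alox5, the 5-lipoxygenase that starts leukotriene synthesis, was at 15.6, 24.1, 14.9, 22.1 and 24.4 CPM in KO and 48.4, 53.8, 39.5, 52.7 and 49.4 CPM in WT, 2.39-fold lower (edgeR adjusted p = 2.96e-05). Ltc4s, which acts later in the same pathway, was at 687, 671, 742, 784 and 708 CPM in KO and 1374, 1155, 1224, 1147 and 1204 CPM in WT (-0.76 ± 0.11, edgeR adjusted p = 0.000187). Tbxas1, the thromboxane synthase, was at 263 to 289.9 CPM in KO and 357 to 429 CPM in WT (-0.51 ± 0.13, edgeR adjusted p = 0.0197). For each of the 3 the KO libraries lay below the WT libraries. Alox5 and Ltc4s were called in each of the 22 alternative fits. Tbxas1 did not pass on the uncorrected read counts (edgeR adjusted p = 0.244). Tbxas1 (-0.502) did not pass without KO 6, 9 and 17, with the log2 fold change in brackets (edgeR adjusted p = 0.244). Tbxas1 lost its call without any 1 of KO 36, KO 6, WT 10 or WT 13 (log2 fold change -0.47 to -0.49).

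Of 16 chemokines 8 rose and 0 fell, with a median log2 fold change of 0.65 (edgeR unadjusted p under 0.05 for 9 higher and 0 lower, DESeq2 8 and 0). Without KO 6, 9 and 17 the count was 2 and the median 0.54. Pf4, also a marker of border-associated macrophages, was at 90.9, 81.7, 48.3, 81.05 and 59.6 CPM in KO and 13.5, 18.4, 22.5, 22.3 and 24.9 CPM in WT (1.84 ± 0.22). Ccl9, which attracts myeloid cells, was at 24.5, 25.9, 25.4, 21.8 and 22.4 CPM in KO and 16.1, 14.2, 13.01, 12.5 and 15.3 CPM in WT (0.74 ± 0.16, edgeR adjusted p = 0.00461). Ccl7 was at 5.48, 6.198, 5.48, 3.38 and 4.16 CPM in KO and 1.68, 0.709, 3.003, 1.16 and 0.638 CPM in WT (1.82 ± 0.38, edgeR adjusted p = 0.00399). Cxcl14 was at 4.22, 10.9, 12.4, 8.903 and 4.98 CPM in KO and 1.01, 1.77, 0.501, 1.74 and 2.87 CPM in WT (2.23 ± 0.45, edgeR adjusted p = 0.00281), with KO 6, 9 and 17 the highest. The groups did not overlap for these 4 genes. Markers of border-associated macrophages, which also make chemokines, were higher in the same libraries, and their part was not tested. Ccl9 (0.72) and Cxcl14 (1.48) did not pass without KO 6, 9 and 17, with the log2 fold change in brackets (edgeR adjusted p 0.0912 to 0.177). Ccl7 did not pass in the 7 libraries of low reads per UMI (edgeR adjusted p = 0.0561).

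The type I interferon response is the programme by which cells raise antiviral genes, many of which carry an interferon-stimulated response element (ISRE) in their promoters. Of 48 tested genes 4 rose and 0 fell, with a median of 0.19 (edgeR unadjusted p under 0.05 for 10 higher and 1 lower, DESeq2 6 and 0). Of the called genes, Ifit3 and Oasl1 were in the RefSeq promoter table, and Ifit3 had 2 matches and Oasl1 none. The windows of Ifit3 are shown with the ISRE in capitals, searched as GAAA, any 2 bases and GAAA again, or TTTC, any 2 bases and TTTC for the other strand, in the 250 bases before to 50 bases after the RefSeq start (GRCm38.p6, plus strand, chr19:34583363-34583392 and chr19:34583397-34583426).
Ifit3 first window: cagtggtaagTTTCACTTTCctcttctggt
Ifit3 second window: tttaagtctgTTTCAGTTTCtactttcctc
Such a match occurred in 3.44% of the 32851 promoters of that table. Ifit3, an antiviral RNA-binding protein, was at 23.2, 25.2, 21.9, 27.9 and 19.4 CPM in KO and 12.1, 10.98, 12.5, 18.8 and 16.9 CPM in WT (0.696 ± 0.16, edgeR adjusted p = 0.0107), with no overlap. The antiviral synthase Oas2 was at 14.3, 14.6, 29.9, 15.7 and 16.05 CPM in KO and 7.399, 8.86, 4.004, 8.11 and 5.42 CPM in WT (1.35 ± 0.25, edgeR adjusted p = 0.00164), and KO 9 was the highest by far. Ifi27l2a was at 126, 154, 159.8, 171 and 96.5 CPM in KO and 63.6, 63.1, 107, 71.8 and 79.7 CPM in WT (0.88 ± 0.17, edgeR adjusted p = 0.00256), where KO 40 lay below WT 10. Oasl1 was at 4.98 to 9.46 CPM in KO and 2.002 to 3.76 CPM in WT (1.15 ± 0.298, edgeR adjusted p = 0.0201). Without KO 6, 9 and 17 1 gene of the list was called and the median was 0.079, and in the 7 libraries of low reads per UMI 9 were higher and 1 lower. Ifit3 and Oasl1 did not pass on the uncorrected read counts (edgeR adjusted p 0.125 to 0.184). Ifit3 (0.56), Ifi27l2a (0.54) and Oasl1 (0.88) did not pass without KO 6, 9 and 17, with the log2 fold change in brackets (edgeR adjusted p 0.227 to 0.324). Oasl1 lost its call without any 1 of WT 10 or WT 37 (log2 fold change 1.06 to 1.13). With libraries thinned to a common depth, Oasl1 did not pass (edgeR adjusted p = 0.0516).

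Of 39 genes of DNA replication 8 rose and 0 fell, with a median of 0.32 (edgeR unadjusted p under 0.05 for 18 higher and 0 lower, DESeq2 8 and 0). The 8 were the helicase subunits Mcm2, Mcm5 and Mcm6, the licensing factor Cdt1, the clamp loader subunits Rfc2, Rfc3 and Rfc5, and the ribonucleotide reductase subunit Rrm1, of which Mcm6, Rfc2, Rfc5 and Rrm1 are named after their values were seen. E2F factors bind the promoters of many such genes, and 9 of the 34 list promoters in the RefSeq table (26.5%) held TTTGGCG or its reverse complement CGCCAAA, against 1.56% of all 32851 promoters of the same length. No match was in the windows of the called genes Mcm2 and Rfc3. The windows of the called genes Cdt1 (chr8:122568035-122568064) and Mcm5 (chr8:75109350-75109379), both on the plus strand of GRCm38.p6, are shown with the match in capitals.
Cdt1: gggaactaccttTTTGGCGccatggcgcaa
Mcm5: aagaactttcgCGCCAAAacgtccagcctc
Cdt1 was at 25.3, 27.7, 16.9, 24.9 and 29.05 CPM in KO and 16.8, 11.7, 11.5, 15.9 and 14.3 CPM in WT (0.82 ± 0.17, edgeR adjusted p = 0.00318). Mcm5 was at 19.6, 16.8, 17.4, 27.9 and 22.2 CPM in KO and 12.4, 12.8, 10.01, 8.69 and 9.88 CPM in WT (0.96 ± 0.19, edgeR adjusted p = 0.00262), and Mcm2 at 16.9, 16.04, 11.9, 17.5 and 15.5 CPM in KO and 9.42, 6.02, 8.51, 6.66 and 10.2 CPM in WT (0.94 ± 0.18, edgeR adjusted p = 0.00154). KO 9 was the lowest KO library for Cdt1 and Mcm2, and the groups did not overlap. Rfc3 was at 37.8 to 48.2 CPM in KO and 25.9 to 32.5 CPM in WT (0.58 ± 0.13, edgeR adjusted p = 0.00688). Without KO 6, 9 and 17 the list had 3 genes higher and 0 lower, with a median of 0.29. Mcm2, Cdt1 and Rfc3 did not pass on the uncorrected read counts (edgeR adjusted p 0.0551 to 0.136). Rfc3 (0.53) did not pass without KO 6, 9 and 17, with the log2 fold change in brackets (edgeR adjusted p = 0.145).

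Of 42 genes of mitosis and cell cycle control 5 rose and 0 fell, with a median of 0.41 (edgeR unadjusted p under 0.05 for 16 higher and 1 lower, DESeq2 6 and 0). Foxm1, a transcription factor of mitotic genes, was at 9.91, 5.47, 6.97, 6.75 and 8.53 CPM in KO and 2.02, 2.83, 4.505, 3.47 and 1.59 CPM in WT (1.43 ± 0.35, edgeR adjusted p = 0.0129). Cenpa, the histone H3 variant of centromeres, was at 16.7, 17.5, 17.4, 23.02 and 15.8 CPM in KO and 10.8, 11.7, 10.01, 8.397 and 10.5 CPM in WT (0.81 ± 0.202, edgeR adjusted p = 0.0160). The spindle checkpoint genes Bub1b (1.298 ± 0.32, edgeR adjusted p = 0.0155) and Mad2l1 (1.53 ± 0.39, edgeR adjusted p = 0.0174) were at 4.57 to 7.47 and 7.17 to 11.4 CPM in KO and at 1.001 to 3.54 and 0.673 to 4.505 CPM in WT. The levels were low, and KO and WT libraries did not overlap for any of the 4. Without KO 6, 9 and 17 the count was 1 higher and 0 lower. Of 37 DNA damage genes (without KO 6, 9 and 17 1 higher and 0 lower) 1 rose, Chek2, and 1 fell, Xrcc5, a subunit of the Ku end-joining complex, which was at 4.605 to 12.9 CPM in KO and 16.3 to 21.9 CPM in WT (-0.96 ± 0.26, edgeR adjusted p = 0.0268). Foxm1, Cenpa, Bub1b, Mad2l1 and Xrcc5 did not pass on the uncorrected read counts (edgeR adjusted p 0.0825 to 0.433). Cenpa (0.67), Bub1b (1.15), Mad2l1 (1.55) and Xrcc5 (-0.69) did not pass without KO 6, 9 and 17, with the log2 fold change in brackets (edgeR adjusted p 0.138 to 0.299). Cenpa lost its call without any 1 of KO 17 or WT 11 (log2 fold change 0.71 to 0.74). Bub1b lost its call without WT 14 (log2 fold change 1.15). Mad2l1 lost its call without KO 40 (log2 fold change 1.43). Xrcc5 lost its call without any 1 of KO 17, KO 40, KO 6, WT 11, WT 13 or WT 14 (log2 fold change -0.79 to -0.998). Bub1b did not pass in the 7 libraries of low reads per UMI (edgeR adjusted p = 0.128). With libraries thinned to a common depth, Foxm1, Cenpa and Xrcc5 did not pass (edgeR adjusted p 0.0657 to 0.157).

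Of 36 p53 targets 4 rose and 2 fell, with a median of 0.031, and 3 rose and 1 fell without KO 6, 9 and 17, with a median of 0.086. Cdkn1a, the cell cycle inhibitor p21, was at 117, 128, 142, 158 and 96.7 CPM in KO and 51.8, 46.8, 65.6, 45.5 and 54.8 CPM in WT, with KO 40 lowest and KO 17 highest among KO. Phlda3, a p53-induced inhibitor of AKT, was at 3.59, 5.47, 2.49, 5.22 and 3.66 CPM in KO and 0.673, 0.354, 0.501, 0.2896 and 1.91 CPM in WT (2.35 ± 0.42, edgeR adjusted p = 0.00113). Trp53cor1, the long noncoding RNA next to Cdkn1a known as lincRNA-p21, fell, from 8.397 to 15.6 CPM in WT to 4.74 to 7.01 CPM in KO (-1.14 ± 0.22, edgeR adjusted p = 0.00244). For each of the 3 the groups did not overlap, and Cdkn1a was called in each of the 22 alternative fits. Phlda3 and Trp53cor1 did not pass on the uncorrected read counts (edgeR adjusted p 0.0684 to 0.156). Trp53cor1 (-0.99) did not pass without KO 6, 9 and 17, with the log2 fold change in brackets (edgeR adjusted p = 0.1101).

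Of a list of 18 linker, variant and core histone genes 5 fell and 0 rose, with a median of -0.24 (edgeR unadjusted p under 0.05 for 0 higher and 7 lower, DESeq2 0 and 5). Hist1h1c, which encodes linker histone H1.2 (chromosome 13, 23738808 to 23740367), was at 95.8, 76.9, 81.2, 89.9 and 105 CPM in KO and 206, 147, 232, 254 and 234 CPM in WT, 2.38-fold lower (edgeR adjusted p = 2.96e-05). WT 37 was the lowest WT library and lay above every KO library. Hist1h1e, for linker histone H1.4, was at 13.1, 20.1, 19.4, 13.8 and 15.5 CPM in KO and 22.2, 25.9, 43.5, 46.04 and 31.6 CPM in WT (-1.07 ± 0.19, edgeR adjusted p = 0.00121). The core histone H4 genes Hist1h4d (-1.21 ± 0.25, edgeR adjusted p = 0.00399) and Hist1h4h (-1.48 ± 0.32, edgeR adjusted p = 0.00474) fell as well, to 14.9 to 29.9 and 1.99 to 6.198 CPM in KO from 36.2 to 54.1 and 8.11 to 16.9 CPM in WT. The fifth was the linker histone gene H1f0, named after its values were seen, so that 3 of the 5 encode linker histones and none a variant histone. Most replication-dependent histone transcripts carry no poly(A) tail and have near-identical copies, so the deposited counts of polyadenylated 3' ends cover them in part. Without KO 6, 9 and 17 the list had 2 genes lower and 0 higher. Hist1h1e and Hist1h4d did not pass on the uncorrected read counts (edgeR adjusted p 0.0922 to 0.111). Hist1h4d (-1.21) and Hist1h4h (-1.54) did not pass without KO 6, 9 and 17, with the log2 fold change in brackets (edgeR adjusted p 0.0531 to 0.0769).

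Among other chromatin regulators few genes were called, and with KO 6, 9 and 17 left out 0 were called in the histone methylation, SWI/SNF and autism risk lists. Of 55 genes of histone methylation, CTCF and cohesin 2 fell, the methyltransferases Setd1a (-0.56 ± 0.11, edgeR adjusted p = 0.00326) and Dot1l (-0.51 ± 0.13, edgeR adjusted p = 0.0184), and 1 rose, the H3K9 methyltransferase Setdb1 (0.46 ± 0.12, edgeR adjusted p = 0.0169). Of 42 SWI/SNF, INO80 and NuRD genes Bcl7b, a SWI/SNF subunit, fell (-0.52 ± 0.11, edgeR adjusted p = 0.00543) and 0 rose (edgeR unadjusted p under 0.05 for 5 higher and 5 lower, DESeq2 3 and 2). Setd1a was at 32.3 to 38.3 CPM in KO and 44.6 to 61.7 CPM in WT, and Bcl7b at 54.7 to 64.2 and 74.04 to 90.2 CPM, without overlap, whereas Dot1l and Setdb1 overlapped. Of 68 autism risk genes Chd8 fell and the RNA-binding gene Celf4 rose (1.26 ± 0.31, edgeR adjusted p = 0.0138). At an unadjusted p under 0.05 in edgeR 3 of the 68 were higher and 8 lower, and DESeq2 called 1 and 3. In the 7 libraries of low reads per UMI 0 were higher and 9 lower, where 4.86% of all tested genes were lower. Celf4, which neurons express, was at 12.02, 32.1, 36.8, 18.1 and 11.9 CPM in KO and 9.75, 9.92, 9.51, 6.37 and 8.93 CPM in WT, highest in KO 6 and 9, the libraries with the highest neuronal marker sums. Of 229 tested zinc finger genes named Zfp 8 fell and 3 rose, with a median of -0.087, and 2 fell and 0 rose without KO 6, 9 and 17, with a median of -0.052. Zfp580 was at 18.6, 9.84, 10.95, 15.7 and 16.6 CPM in KO and 52.8, 49.95, 62.6, 48.6 and 50.7 CPM in WT, and Zfp865 at 26.4, 24.8, 38.8, 29.8 and 32.6 CPM in KO and 69.3, 48.9, 42.5, 53.3 and 49.4 CPM in WT (-0.802 ± 0.14, edgeR adjusted p = 0.00122). Zfp580 and Zfp865 both overlap Ccdc106 on the same strand on chromosome 7, so their tags may be shared with it. Setd1a, Dot1l, Setdb1, Bcl7b and Celf4 did not pass on the uncorrected read counts (edgeR adjusted p 0.0661 to 0.293). Setd1a (-0.64), Dot1l (-0.61), Setdb1 (0.33), Bcl7b (-0.49) and Celf4 (0.44) did not pass without KO 6, 9 and 17, with the log2 fold change in brackets (edgeR adjusted p 0.0536 to 0.613). Dot1l lost its call without any 1 of KO 36, KO 40, WT 13 or WT 37 (log2 fold change -0.44 to -0.49). Setdb1 lost its call without any 1 of KO 17, KO 6 or WT 14 (log2 fold change 0.41 to 0.43). Celf4 lost its call without KO 6 (log2 fold change 1.07). Celf4 did not pass in the 7 libraries of low reads per UMI (edgeR adjusted p = 0.149).

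Signalling and housekeeping lists held few called genes. Of 25 TGF-beta genes 2 fell and 0 rose (edgeR unadjusted p under 0.05 for 0 higher and 4 lower, DESeq2 0 and 1, without KO 6, 9 and 17 0 and 1), with the co-receptor Eng at 205, 271, 229, 259 and 187 CPM in KO and 361, 316, 345, 309.5 and 303 CPM in WT (-0.51 ± 0.12, edgeR adjusted p = 0.00807). Of 25 Wnt genes Porcn, the enzyme that acylates Wnt proteins, fell, from 13.9 to 22.9 to 7.59 to 12.03 CPM (-0.91 ± 0.21, edgeR adjusted p = 0.00997), and 0 rose (edgeR unadjusted p under 0.05 for 3 higher and 1 lower, DESeq2 1 and 1, without KO 6, 9 and 17 0 and 0). For Eng and Porcn the KO libraries lay below the WT libraries. Of 83 cytosolic ribosomal protein genes 2 fell and 0 rose, with a median of -0.18 (edgeR unadjusted p under 0.05 for 0 higher and 16 lower, DESeq2 0 and 4), which was -0.088 in the 7 libraries of low reads per UMI (1 higher, 6 lower) and -0.28 without KO 6, 9 and 17 (0 higher, 2 lower). Of 80 nuclear oxidative phosphorylation genes Ndufb7, a complex I subunit, fell (-0.65 ± 0.14, edgeR adjusted p = 0.00458) and 0 rose (edgeR unadjusted p under 0.05 for 1 higher and 3 lower, DESeq2 0 and 1, without KO 6, 9 and 17 0 and 2). Of 28 cholesterol genes the mevalonate pathway kinase Pmvk fell, from 24.4 to 34.6 to 10.7 to 16.9 CPM (-1.08 ± 0.21, edgeR adjusted p = 0.00185), and 0 rose (edgeR unadjusted p under 0.05 for 2 higher and 3 lower, DESeq2 1 and 1, without KO 6, 9 and 17 0 and 0). Porcn and Ndufb7 did not pass on the uncorrected read counts (edgeR adjusted p 0.146 to 0.218). Porcn (-0.96) and Pmvk (-1.11) did not pass without KO 6, 9 and 17, with the log2 fold change in brackets (edgeR adjusted p 0.0536 to 0.117).

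Stress genes moved in both directions. Of 36 genes of the integrated stress and unfolded protein responses 2 rose and 2 fell, with a median of -0.042, and 0 rose and 0 fell without KO 6, 9 and 17, with a median of -0.075. The transcription factor Atf4 was at 307, 275, 299.7, 344 and 331 CPM in KO and 449.98, 387, 448, 419.6 and 427 CPM in WT (-0.45 ± 0.11, edgeR adjusted p = 0.00955), and the stress-induced Nupr1 at 58.3 to 82.3 CPM in KO and 95.7 to 106 CPM in WT (-0.54 ± 0.12, edgeR adjusted p = 0.00770). Creld2, an endoplasmic reticulum protein, rose from 41.4 to 52.8 to 61.7 to 91.8 CPM (0.63 ± 0.12, edgeR adjusted p = 0.00214). Each of these 3 was without overlap. The autophagy receptor Sqstm1 fell, from 219.6 to 264 to 170.4 to 196 CPM (-0.39 ± 0.092, edgeR adjusted p = 0.00958). In 5 pathway lists no gene was called by edgeR or by DESeq2 over all libraries. Of 24 inflammatory cytokine and inflammasome genes 2 were higher and 4 lower at an unadjusted p under 0.05 in edgeR, of 37 proteasome genes 2 and 0, of 57 genes of the actin cytoskeleton and migration 2 and 3, of 16 nuclear long noncoding RNAs 1 and 1, and of 6 mitochondrially encoded transcripts 1 and 0. The median of the last was 0.37, and it was -0.54 without KO 6, 9 and 17 and -0.76 in the 7 libraries of low reads per UMI. In those 7 libraries edgeR called 3 inflammatory genes, 3 actin and migration genes and 1 mitochondrially encoded transcript lower. It called 2 proteasome genes higher and 0 of the long noncoding RNAs. Over all genes tested there, 4.26% were higher and 4.86% lower. Nupr1 and Sqstm1 did not pass on the uncorrected read counts (edgeR adjusted p 0.0559 to 0.148). Atf4 (-0.41), Nupr1 (-0.57), Creld2 (0.42) and Sqstm1 (-0.34) did not pass without KO 6, 9 and 17, with the log2 fold change in brackets (edgeR adjusted p 0.0977 to 0.2605). With no filter on low counts, Sqstm1 did not pass (edgeR adjusted p = 0.0798).

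Genes of several other brain cell types rose, with levels that differed between KO libraries. All 5 tested neuronal markers, 5 of 6 astrocyte markers, 3 of 5 oligodendrocyte lineage markers and 8 of 11 border-associated macrophage markers were higher, and 0 of each were lower. By DESeq2 the counts were 5, 5, 3 and 9 higher and 0 lower, and the edgeR counts at an unadjusted p under 0.05 were 5, 5, 4 and 11. Aldoc, an aldolase of astrocytes and neurons, was at 35.2, 113, 172, 95.2 and 38.6 CPM in KO and 8.41, 3.54, 4.004, 17.4 and 5.74 CPM in WT (3.43 ± 0.48, edgeR adjusted p = 0.000113). Ndrg2, an astrocyte gene, was at 42.6, 124, 166, 111 and 44.99 CPM in KO and 14.1, 10.98, 6.51, 25.5 and 8.29 CPM in WT (2.82 ± 0.43, edgeR adjusted p = 0.000257). In both the KO libraries lay above WT, and KO 6, 9 and 17 held over 2 times the level of KO 36 and 40. Without those 3 libraries the log2 fold changes were 2.19 and 1.71, and both genes were still called. Cbr2, a marker of border-associated macrophages, did not show that split, at 45.1, 49.95, 42.8, 40.5 and 31.8 CPM in KO and 6.39, 7.44, 5.01, 10.7 and 7.65 CPM in WT, with a log2 fold change of 2.45 with and 2.33 without the 3 libraries. Without KO 6, 9 and 17 the calls were 1 neuronal, 4 astrocyte, 2 oligodendrocyte lineage and 9 border-associated macrophage markers.

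Some neighbouring tested genes were called higher together, 3 in a row. On chromosome 8, from 94067954 to 94173568, they were the ciliary gene Bbs2 (0.81 ± 0.14, edgeR adjusted p = 0.00100) and the metallothioneins Mt3 (2.46 ± 0.62, edgeR adjusted p = 0.0163) and Mt2 (2.51 ± 0.41, edgeR adjusted p = 0.000513). Bbs2 was at 29.7, 27.3, 20.9, 27.3 and 30.9 CPM in KO and 16.1, 17.4, 13.5, 14.8 and 16.3 CPM in WT, whereas Mt2 was at 11.6, 53.6, 54.8, 55.6 and 20.4 CPM in KO and 8.07, 7.44, 3.504, 6.08 and 7.33 CPM in WT, with KO 36 near WT. On chromosome 1, from 74713574 to 75125200, they were the sterol hydroxylase Cyp27a1 (0.41 ± 0.12), the neuronal Cdk5r2 (2.93 ± 0.67) and the end-joining factor Nhej1 (1.24 ± 0.25), with edgeR adjusted p of 0.0358, 0.00854 and 0.00318. Cyp27a1 and Cdk5r2 did not pass on the uncorrected read counts (edgeR adjusted p 0.106 to 0.215). Mt3 (0.67), Mt2 (1.31) and Cyp27a1 (0.52) did not pass without KO 6, 9 and 17, with the log2 fold change in brackets (edgeR adjusted p 0.104 to 0.749). Mt3 lost its call without KO 9 (log2 fold change 1.93). Cyp27a1 lost its call without any 1 of KO 17, KO 36, KO 40, KO 6, WT 10, WT 13 or WT 37 (log2 fold change 0.37 to 0.43). Mt3 did not pass in the 7 libraries of low reads per UMI (edgeR adjusted p = 0.0560). With no filter on low counts, Cyp27a1 did not pass (edgeR adjusted p = 0.0517). Cdk5r2, at 1.83 to 17.4 CPM in KO and 0 to 2.03 CPM in WT, was too low to be tested without KO 6, 9 and 17 or in the 7 libraries, and was tested in 8 of the 22 alternative fits.

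The male KO effect was set beside that in females, which rests on other libraries in the same fit. In females 293 genes were called (2.68%). Reads per UMI were 1.84 to 5.52 in female KO and 2.96 to 7.26 in female WT, against 1.79 to 3.12 in the male libraries. Female genotype and sex therefore run partly together with reads per UMI, in the female contrast and in the difference between the sexes. Of the 369 genes higher in male KO 307 (83.2%) had a positive log2 fold change in females, with a female median of 0.49, and of the 314 lower in male KO 285 (90.8%) had a negative one, with a median of -0.42. Over all tested genes the sign was shared by 62.4% and the female median was 0.011. Calls in females numbered 48 in the same direction and 2 in the other among the genes higher in males, and 45 and 0 among those lower in males. The 2 were Axl (-0.75 ± 0.18 in females, edgeR adjusted p = 0.0286) and H2-Aa (-0.74 ± 0.196, edgeR adjusted p = 0.0444). Cdkn1a (1.12 ± 0.18 in females), Chek2 (1.32 ± 0.21), Ccdc163 (1.15 ± 0.17), Pdcd1 (1.36 ± 0.29) and Alox5 (-1.16 ± 0.19) were called in females too, with edgeR adjusted p of 0.00295, 0.00303, 0.00231, 0.0153 and 0.00307. Chd8 itself was lower in female KO (-0.44 ± 0.12) but was not called there (edgeR adjusted p = 0.0547). Whether the KO effect differs between the sexes was tested directly, and 26 genes passed (0.237%; 46 without female KO 33), of which 12 were among those higher and 2 among those lower in male KO. Hist1h1c was 1 of them, with log2 fold changes of -1.25 ± 0.15 in males and 0.41 ± 0.19 in females (difference -1.66 ± 0.24, edgeR adjusted p = 0.00408). The border-associated macrophage marker Cbr2 differed most clearly (2.86 ± 0.36, edgeR adjusted p = 0.000835). Mean CPM of Cbr2 was 42.0 in male KO, 7.44 in male WT, 46.3 in female KO and 64.7 in female WT. For Hist1h1c the means were 89.7, 215, 101 and 76.5 CPM in the same order. Male WT was the lowest group for Cbr2 and the highest for Hist1h1c, and male KO lay near the female groups. Male WT was also the lowest for Pf4 (72.3, 20.3, 81.9 and 89.5 CPM) and Apoe (3727, 1788, 4181 and 5191 CPM), which passed too. It was the highest for Hist1h1e (16.4, 33.8, 19.9 and 17.6 CPM), which did not pass (edgeR adjusted p = 0.103). For Chek2, in contrast, both KO groups lay above both WT groups (51.8, 21.6, 41.2 and 17.5 CPM). For Csf2ra the difference of 0.77 ± 0.196 did not pass (edgeR adjusted p = 0.115), and no effect is called particular to males from a call in males alone.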

How the data were processed

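RNA of mouse brain microglia was measured in 18 libraries, of which the 10 male ones are compared here. Whole-number counts, 1 table of reads and 1 of UMI-corrected molecules, were deposited without scaling. Tools named in the submitters' processing notes are cutadapt, STAR, HTSeq, with mm10 as build. Not given in the sources used here are versions, annotation, strand setting and how UMIs were corrected. The 16 columns per table that match no sample here were not used. GENCODE M21 gave symbols and coordinates (GRCm38, the same assembly as mm10) for 52081 of 55414 identifiers.

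UMI-corrected counts were filtered with filterByExpr by group, scaled by TMM and fitted with edgeR 4.0.16 (R 4.3.3) on all 18 libraries with 1 mean per group (common coefficient of biological variation 17.8%, 14 residual degrees of freedom). The contrast was male KO minus male WT. Calls were made at an adjusted p (Benjamini-Hochberg over 10948 genes) under 0.05, whatever the fold. Dividing the absolute log2 fold change by the root of F gave its SE. CPM of single genes is TMM-scaled. Marker sums and the CPM of Ddx3y, Uty, Kdm5d, Eif2s3y and Xist are scaled by library totals. Alternatives, chosen with earlier results of these data known, were other count tables, scalings and filters, DESeq2 1.42.0, thinned depth, a reads-per-UMI covariate, other sets of libraries and each male library left out. The fits without KO 6, 9 and 17 and without female KO 33 were added after seeing the data. The code was tested on simulated data.

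The comparison, the gene lists and the rule for naming genes were also chosen with earlier results of these data known. Named are Chd8; in each direction 15 non-overlapping genes of lowest p whose mean log2 CPM is 3 or more and 10 genes of largest fold where it is 5 or more; up to 4 called genes per list, or 2 of lowest p where none was called; genes of runs of 3 neighbours; and genes that differ between the sexes. Predicted genes and pseudogenes are counted only, and a few items are not reported here. The rule gave 164 genes, of which 123 were considered for the text. The few further list members named without per-library values were chosen after their values were seen. In the annotation Cdt1, Foxm1, Hist1h1e, Setd1a and Cdk5r2 also overlap a gene on the same strand, and Chd8, Jam3, Ltc4s, Tbxas1, Igf1, Adora1, Oasl1, Gas6, Cd22, Eng, Trp53cor1, Setdb1, Dot1l, Celf4, Sqstm1, Cryab, Mt2, Pla2g7 and Pkmyt1 an antisense gene. The RefSeq promoter table (GRCm38.p6) matched 75.6% of tested genes, under the 80% needed, so no share of motifs over the called genes is given.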

Additional observations from a re-analysis of the deposited data

Results flagged for a closer look

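A library far from the other 4 of its group was seen in 15 of 278 groups of values examined, where chance gives about 1 in 20. WT 11 was low for Jam3 (23.7 CPM) and Celf4 (6.37 CPM) and high for Igf1 (3.19 CPM), Setdb1 (65.2 CPM), Mbp (91.5 CPM) and Mobp (10.1 CPM). WT 10 was high for Erich1 (30.03 CPM), and WT 14 for Phlda3 (1.91 CPM). KO 9 was low for Adck5 (34.4 CPM) and high for Ak1 (38.8 CPM), Oas2 (29.9 CPM) and reads per UMI (2.94). KO 17 was high for Cenpa (23.02 CPM). The microglial marker sum was highest in WT 37 (34900 CPM), and the pituitary marker sum in KO 6 (127 CPM).

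The KO effect differed between the sexes (edgeR, difference of log2 fold changes, male minus female) for 14 genes named here. It was higher in males for Apoe (1.37), Axl (1.39), Pf4 (1.94), H2-Aa (1.41), Cbr2 (2.86), Cd209f (3.18), Pla2g7 (2.82), Olfm1 (2.99), Hpca (4.03), Pkmyt1 (1.30), Sept3 (4.32) and Rasgrp4 (1.36), and lower for Hist1h1c (-1.66) and Sumo3 (-0.80). Pkmyt1, a kinase that holds back entry into mitosis, was at 14.98, 18.96, 13.4, 18.1 and 20.01 CPM in male KO and 7.74, 8.502, 7.01, 7.53 and 7.01 CPM in male WT, with a female log2 fold change of -0.12. Pla2g7, which cleaves platelet-activating factor, was at 16.7, 25.2, 24.9, 24.6 and 13.5 CPM in male KO and 3.03, 3.897, 4.004, 4.34 and 3.83 CPM in male WT (-0.41 in females). With KO 6, 9 and 17 left out, 1 gene passed this test.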

How the results depend on the processing

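Genes under a mean log2 CPM of 3 rest on few molecules. No paired analysis was possible because the groups compared share no replicate numbers. The 683 calls of male KO against WT became 222 on read counts (141 higher, 81 lower), 1145 with the 10 male libraries fitted alone (599 and 546) and 196 without KO 6, 9 and 17 (112 and 84). Without any gene filter 588 genes were higher, and in the 7 libraries of low reads per UMI 501 were lower. Leaving out each male library in turn gave 484 (without KO 6) to 665 (without KO 9) calls, 272 to 334 of them higher and 210 to 331 lower. Of the 683, 63 higher and 50 lower genes were called in each of the 22 alternatives. Without female KO 33, the shallowest library, which holds Y-linked transcripts, 945 genes were called.

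Chd8 kept its direction and did not pass on read counts (-0.56, edgeR adjusted p = 0.0753) or without KO 6, 9 and 17 (-0.51, edgeR adjusted p = 0.0879). The 26 genes that differed between the sexes became 10 on read counts, 238 without a filter, 17 with at least 10 CPM in 4 libraries, 83 with DESeq2, 11 to 35 with 1 male library left out (16 or fewer without KO 6 or 17, or WT 13, 10, 11 or 14), 46 without female KO 33 and 1 without KO 6, 9 and 17. The cause was not tested. None of the 123 genes considered for the text changed direction. They were called in the main comparison and the alternatives reuse its libraries, so the kept direction is no independent check.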

Other observations

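Of 27 antigen presentation genes H2-Aa, a class II chain, rose (538 to 983 CPM in male KO, 412 to 649.7 CPM in male WT, 0.67 ± 0.17, edgeR adjusted p = 0.0201), and the groups overlapped. In females H2-Aa was called lower in KO (-0.74 ± 0.196, edgeR adjusted p = 0.0444). Of 23 genes of Toll-like receptor signalling Tlr5, the flagellin receptor, fell (7.66 to 15.4 CPM in KO, 15.5 to 19.4 CPM in WT, -0.77 ± 0.21, edgeR adjusted p = 0.0248). Of 65 splicing genes Snrpd1, a core spliceosomal protein, rose (48.3 to 75.1 CPM in KO, 36.3 to 47.6 CPM in WT, 0.58 ± 0.14, edgeR adjusted p = 0.0123). Of 75 mitochondrial ribosomal protein genes Mrpl51 was lower (18.8 to 29.5 CPM in KO, 32.9 to 49.1 CPM in WT, -0.82 ± 0.19, edgeR adjusted p = 0.00959) and 1 was higher. Of 23 heat shock genes the lens and glial chaperone Cryab was at 6.96, 18.96, 16.9, 14.4 and 7.21 CPM in KO and 2.35, 1.77, 5.01, 6.95 and 7.01 CPM in WT (1.397 ± 0.37, edgeR adjusted p = 0.0253), with KO 6, 9 and 17 highest. Among redox genes Gstm1, a glutathione transferase that astrocytes express, showed the same order, at 14.98, 28.4, 59.7, 40.2 and 19.5 CPM in KO and 14.8, 12.04, 13.5, 16.5 and 17.9 CPM in WT (1.05 ± 0.29, edgeR adjusted p = 0.0292). Tlr5, Mrpl51, Cryab and Gstm1 did not pass on the uncorrected read counts (edgeR adjusted p 0.0980 to 0.138). H2-Aa (0.53), Tlr5 (-0.603), Snrpd1 (0.49), Cryab (0.61) and Gstm1 (0.22) did not pass without KO 6, 9 and 17, with the log2 fold change in brackets (edgeR adjusted p 0.168 to 0.818). H2-Aa lost its call without any 1 of KO 17, KO 6, WT 13, WT 14 or WT 37 (log2 fold change 0.57 to 0.63). Tlr5 lost its call without any 1 of KO 40, KO 6, KO 9, WT 13 or WT 14 (log2 fold change -0.66 to -0.75). Cryab lost its call without any 1 of KO 17, KO 6, KO 9, WT 13 or WT 37 (log2 fold change 1.199 to 1.35). Gstm1 lost its call without any 1 of KO 17, KO 9, WT 10, WT 11, WT 13 or WT 37 (log2 fold change 0.75 to 1.096). Tlr5 and Gstm1 did not pass in the 7 libraries of low reads per UMI (edgeR adjusted p 0.0894 to 0.108).

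The Y-linked gene Ddx3y was at 25.3, 1.11, 28.7, 1.86 and 5.90 CPM in KO 36, 6, 9, 17 and 40, and at 9.75 to 23.8 CPM in the 5 WT libraries. The Y-linked genes Kdm5d (5.93 to 8.79 CPM in KO, 5.85 to 10.4 CPM in WT) and Eif2s3y (7.41 to 17.9 and 11.04 to 22.3 CPM) did not show that split. Ddx3y was chosen after its values were seen.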
